A study of Mus musculus with 78 samples.

Results

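The hedgehog ligand and pathway genes described here were 9 of the 21755 protein-coding genes that were measured, chosen by name. They comprised 3 ligands (Shh, Ihh and Dhh), 3 receptors or membrane proteins (Ptch1, Smo and Hhip) and 3 transcription factors at the end of the pathway (Gli1, Gli2 and Gli3). For each gene, peaks were read in a promoter window of 3 kb on either side of the transcription start site (TSS), the 5′ end of its gene record, and over the gene itself, in every one of 72 ChIP-seq peak lists. All 9 genes were found in the annotation.

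Hedgehog ligands are secreted proteins. In the absence of ligand the receptor PTCH1 holds back the membrane protein SMO. When a ligand binds PTCH1, SMO is released, the GLI factors are no longer processed into repressors, and targets including Gli1, Ptch1 and Hhip are transcribed in responding cells. In the embryo, hedgehog from the notochord and floor plate acts on the somites from which skeletal muscle is formed. PRC2, the complex that deposits H3K27me3, is a repressor known to occupy genes of developmental signalling pathways. EZH1 and EZH2 are its alternative catalytic subunits, and SUZ12 is a core subunit that both forms share.

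The peak lists came from C2C12, a line of mouse myoblasts able to fuse into multinucleated myotubes. By the study's methods, cells were first differentiated, and the resulting postmitotic myotubes were synchronized with a horse serum shock. Collection was at 12, 16, 20, 24, 28 and 32 h, with 3 biological replicates per time point. The lists comprised 4 profiles of 18 libraries each, namely SUZ12, H3K27me3, HA-EZH1 and Bio-EZH1. A further 6 HA input samples were not used here. Bio-EZH1 is the nuclear isoform EZH1α with an Avi tag that a co-expressed BirA ligase biotinylates, expressed in C2C12 in which the endogenous Ezh1 was knocked down, and pulled down with streptavidin after a double cross-link. SUZ12 was precipitated with an antibody from chromatin of that same modified line, also after a double cross-link. H3K27me3 was precipitated with an antibody from formaldehyde-fixed wild-type C2C12. HA-EZH1 is EZH1α with an HA tag. The sample labels give only the C3H/C2C12 line for it, and the study, which describes both a constitutive and a doxycycline-inducible rescue line, names neither for these libraries. SUZ12 and Bio-EZH1 thus shared line and fixation and differed in bait and pull-down. Between H3K27me3 and these profiles, bait, cell line and fixation differed together and cannot be told apart. Nor can they be told apart for HA-EZH1, whose line is not named. Serum shock was common to all libraries, and no unsynchronized sample was measured.

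With peaks required to have a q-value under 0.01, SUZ12 lists held 18019 to 35004 peaks, H3K27me3 lists 18542 to 28104, HA-EZH1 lists 1902 to 13136 and Bio-EZH1 lists 7812 to 17787. The 3 H3K27me3 libraries of 12 h stood apart from the 15 later ones, with 24489 to 28104 peaks of median fold enrichment 2.36 to 2.4998, against 18542 to 24907 peaks of median 2.81 to 3.29 from 16 h onward. Peak lists carry no expression, so the label of muscle cells could be read only through the chromatin of muscle genes. Promoters of Myod1, Myf5, Myog, Mef2c, Des, Ttn and Tnnt3 had an H3K27me3 peak in 0 of 18 libraries, whereas Myh3, Acta1 and Ckm had one in 4, 11 and 18. Read depth is unknown for every library, and the spread between replicates is the only error available.

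The ligand Ihh and the effector Gli3 show the contrast on which the results turn, since both start sites lie in CpG-rich sequence and only that of Ihh lay under SUZ12 and H3K27me3 peaks. The 250 bases before the TSS are given for these and for Shh and Smo, read from the mm10 assembly 5′ to 3′ on the strand of the gene, with every CpG in capitals.
Ihh, chr1:74951673-74951922, minus strand: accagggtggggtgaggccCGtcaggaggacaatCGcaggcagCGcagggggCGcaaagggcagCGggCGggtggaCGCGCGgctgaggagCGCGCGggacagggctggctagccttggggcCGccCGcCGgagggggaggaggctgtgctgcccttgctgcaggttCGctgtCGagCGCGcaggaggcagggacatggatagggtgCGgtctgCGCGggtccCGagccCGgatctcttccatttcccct
Shh, chr5:28467257-28467506, minus strand: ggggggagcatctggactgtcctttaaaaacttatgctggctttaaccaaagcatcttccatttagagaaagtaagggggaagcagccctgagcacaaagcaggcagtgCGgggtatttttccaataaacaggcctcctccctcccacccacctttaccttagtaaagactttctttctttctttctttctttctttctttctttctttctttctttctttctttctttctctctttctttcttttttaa
Gli3, chr13:15462985-15463234, plus strand: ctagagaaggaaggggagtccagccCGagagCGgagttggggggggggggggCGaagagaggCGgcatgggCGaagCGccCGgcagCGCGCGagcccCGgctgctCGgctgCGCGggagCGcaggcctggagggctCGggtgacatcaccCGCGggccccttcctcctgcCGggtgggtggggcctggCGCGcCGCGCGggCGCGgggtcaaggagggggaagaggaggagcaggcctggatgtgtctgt
Smo, chr6:29735253-29735502, plus strand: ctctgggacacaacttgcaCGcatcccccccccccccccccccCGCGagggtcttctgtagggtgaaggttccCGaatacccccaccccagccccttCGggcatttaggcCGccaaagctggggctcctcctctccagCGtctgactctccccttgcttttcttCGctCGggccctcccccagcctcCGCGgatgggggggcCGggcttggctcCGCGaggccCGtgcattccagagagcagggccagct
These stretches held 24 CpG before Ihh, 1 before Shh, 26 before Gli3 and 15 before Smo. Over the whole 6 kb window, the ratio of observed to expected CpG was 0.543 for Ihh, 0.473 for Shh, 0.662 for Gli3 and 0.455 for Smo, while the median gene had 0.325. The promoter that no SUZ12 or H3K27me3 peak reached had the highest ratio of the 9 genes, above 98.05% of all protein-coding genes. Of the remaining members, Dhh had the lowest ratio (0.321), and Hhip, Ptch1, Gli1 and Gli2 had 0.364, 0.404, 0.416 and 0.453.

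SUZ12, H3K27me3 and Bio-EZH1 each occupied the same 7 of the 9 promoters, those of Shh, Ihh, Dhh, Ptch1, Hhip, Gli1 and Gli2, while HA-EZH1 occupied 1, that of Ihh. A promoter was called bound when all 3 replicates of a time point had a peak that shared at least 1 bp. Of all protein-coding genes, 14.5% were bound by SUZ12, 24.2% by H3K27me3, 9.85% by HA-EZH1 and 12.0% by Bio-EZH1 at 1 or more time points. At all 6 time points, 4 members were bound by SUZ12, 6 by H3K27me3, 0 by HA-EZH1 and 6 by Bio-EZH1, beside 4.48%, 9.95%, 0.147% and 6.95% of all genes. By role, SUZ12, H3K27me3 and Bio-EZH1 each bound 3 of 3 ligands, 2 of 3 receptors and 2 of 3 effectors. Smo and Gli3 were the 2 members that these profiles left unbound. No set test was made on 9 genes chosen by name, and these counts are a description.

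**Figure D1:**
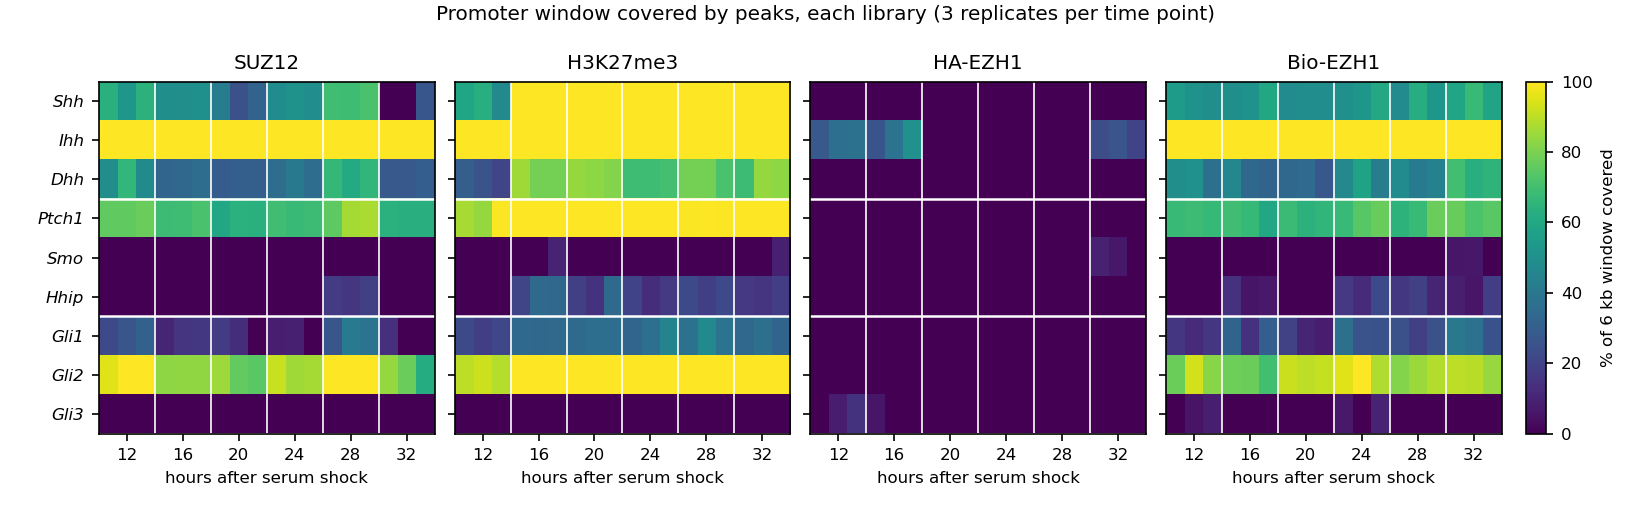
Percent of the 6 kb promoter window covered by peaks (colour) for each of the 9 genes (rows) in each library (columns, ordered by hours after serum shock, 3 replicates per time point) of the 4 profiles. The Ihh row is at 100% throughout SUZ12, H3K27me3 and Bio-EZH1, HA-EZH1 shows Ihh at 12, 16 and 32 h and scattered low values at Smo and Gli3, and the Smo and Gli3 rows stay at 0 to 14.5% everywhere.

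Among the ligands, Ihh (chr1:74945315-74951672, minus strand, the ligand of cartilage and bone growth) was the most heavily covered member. Its promoter window was covered over 100% of its length in all 18 libraries of SUZ12, of H3K27me3 and of Bio-EZH1. The stretch covered in every one of the 18 libraries measured 15074 bp in SUZ12, 17083 bp in H3K27me3 and 15061 bp in Bio-EZH1. In each profile this shared stretch began over 10 kb before the TSS and ended more than 4 kb inside the gene, which is itself only 6358 bp long. The strongest promoter peak itself was far longer in H3K27me3, with a median length of 102412 bp. In SUZ12 that median was 17463.5 bp and in Bio-EZH1 16549.5 bp. The summit of the strongest peak lay at a median of 458 bp after the TSS in SUZ12 and 394 bp after it in Bio-EZH1, in a UTR or a coding exon in most libraries. In Bio-EZH1 this peak was among the strongest of the whole library, at rank 19 to 121 from the top by fold enrichment.

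Shh (chr5:28456815-28467256, minus strand), the ligand of the floor plate and limb bud, was covered mainly downstream of its start in SUZ12 and Bio-EZH1. Its promoter window was covered over a median of 49.6% in SUZ12, 100% in H3K27me3 and 51.9% in Bio-EZH1, and over 0% in HA-EZH1. Over the gene record, median coverage was 95.1% in SUZ12, 100% in H3K27me3 and 96.6% in Bio-EZH1. Bases covered in all 18 libraries began 3209 bp after the TSS in SUZ12, 142 bp after it in H3K27me3 and 109 bp after it in Bio-EZH1. The CpG-poor stretch printed above thus lay outside the part that every library covered. In H3K27me3, however, every library from 16 h onward covered 100% of the window, and so that stretch as well. A SUZ12 peak was absent from the window in 2 libraries, replicates 1 and 2 at 32 h.

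Dhh (chr15:98891152-98898540, minus strand), the ligand of the testis and of peripheral nerve sheaths, had a narrow peak on its coding sequence. All 18 libraries of SUZ12, H3K27me3 and Bio-EZH1 had a promoter peak, with median coverage of 35.9%, 79.1% and 45.1%. The stretch shared by all 18 libraries was 1569 bp, 1247 bp and 1639 bp long in these profiles. The summit lay in a coding exon in every library, at a median of 365 bp after the TSS in SUZ12 and 381 bp in Bio-EZH1. The start of Rhebl1 lies 4000 bp away, so the windows of both genes overlap, and Rhebl1 had a promoter peak in 18, 17, 0 and 18 libraries of SUZ12, H3K27me3, HA-EZH1 and Bio-EZH1.

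Among the receptors, Ptch1 (chr13:63508328-63573598, minus strand), the ligand receptor and itself a hedgehog target, had a promoter peak in all 18 libraries of SUZ12, H3K27me3 and Bio-EZH1. Median coverage was 68.7%, 100% and 67.9% in these profiles. The shared stretch was 3562 bp, 5054 bp and 3389 bp long, and the summit lay in an intron, 913 bp after the TSS in SUZ12 and 877 bp in Bio-EZH1. Along the gene record, only 5.18% was covered in the median SUZ12 library, 6.34% in H3K27me3 and 6.92% in Bio-EZH1, so most of the gene of 65271 bp lay under no peak.

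Ptch1 was also the only member with the GLI-binding sequence GACCACCCA, on either strand, in its 6 kb window, a sequence found in the windows of 4.95% of protein-coding genes. The site is shown with 10 bases on each side and the motif in capitals.
Ptch1, chr13:63573455-63573483, minus strand: tggcgcggcaGACCACCCAcgccgagggc
The middle of the motif lies 129 bp after the TSS. The motif lay under a peak in 18 of 18 SUZ12, 18 of 18 H3K27me3, 0 of 18 HA-EZH1 and 18 of 18 Bio-EZH1 libraries. None of the 9 genes had this sequence in the 250 bases before the TSS, where 0.193% of promoters have it. The E-box sequences CAGCTG and CACGTG were likewise in none of these 9 stretches, and in 12.1% and 6.58% of all promoters.

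Hhip (chr8:79965851-80058006, minus strand), a membrane protein that binds and sequesters the ligands, had weak peaks that were called at some time points only. A SUZ12 peak was present only in the 3 libraries of 28 h, covering 17.9%, 15.7% and 18.9% of the window. H3K27me3 peaks were present in all 15 libraries from 16 h onward, at 13.1 to 34.6% coverage, and in 0 of 3 at 12 h. Bio-EZH1 peaks were present in all 3 libraries at 16, 24, 28 and 32 h and in none at 12 and 20 h. Their fold enrichment was 2.66 to 3.68, and a median of 40.8% of the peaks in their own library were weaker.

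Smo (chr6:29735503-29761365, plus strand), the signal transducer that PTCH1 holds back, had 0 SUZ12, 2 H3K27me3, 2 HA-EZH1 and 2 Bio-EZH1 libraries with a promoter peak, and the highest coverage was 9.73%. H3K27me3 lay nearby without reaching the gene. Stretches covered in all 18 H3K27me3 libraries lay from -14152 to -10236 bp, from -8173 to -7772 bp and from -6274 to -4618 bp relative to the TSS, over no other protein-coding gene. Over the Smo record itself, H3K27me3 coverage was 0% in every library.

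Among the effectors, Gli2 (chr1:118834132-119053619, minus strand), the main transcriptional activator of the pathway, had a promoter peak in all 18 libraries of SUZ12, H3K27me3 and Bio-EZH1. Median coverage was 85.6%, 100% and 88.3%, the highest of any member but Ihh in SUZ12 and Bio-EZH1. The domain of H3K27me3 shared by 18 libraries ran from -2324 to 12479 bp relative to the TSS. The longest stretch shared by the Bio-EZH1 libraries was 4379 bp and spanned the TSS, whereas SUZ12 shared 2356 bp just inside the gene and 944 bp just before it.

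Gli1 (chr10:127329882-127341974, minus strand), a target and amplifier of the response, had SUZ12 peaks in 14 libraries, H3K27me3 peaks in 18 and Bio-EZH1 peaks in 18. Median coverage was 14.6%, 34.5% and 24.9%, lower than at any other bound member but Hhip. The SUZ12 and Bio-EZH1 summits lay in an intron in every library, 1197 and 1234 bp after the TSS at the median. The place of the SUZ12 peak within its library varied with time. At 12 h 37.3 to 77.4% of the library's peaks were weaker and at 28 h 82.5 to 83.8%, whereas in the 8 libraries of 16, 20, 24 and 32 h that had a peak it was 0.129 to 2.19%.

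Gli3 (chr13:15463235-15730026, plus strand), which is mainly processed into the repressor of the pathway, had no SUZ12 or H3K27me3 peak in its window in any library. HA-EZH1 peaks were present in 3 libraries, replicates 2 and 3 at 12 h and replicate 1 at 16 h, and Bio-EZH1 peaks in 4, with fold enrichments of 1.95 to 2.59 and 2.84 to 3.34. They covered at most 14.5% of the window and never appeared in all 3 replicates of a time point. Farther inside the long gene, HA-EZH1 peaks were present in all 3 libraries of 20 h, over 0.785%, 0.841% and 0.675% of the record, where SUZ12 and H3K27me3 had none.

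**Figure D2:**
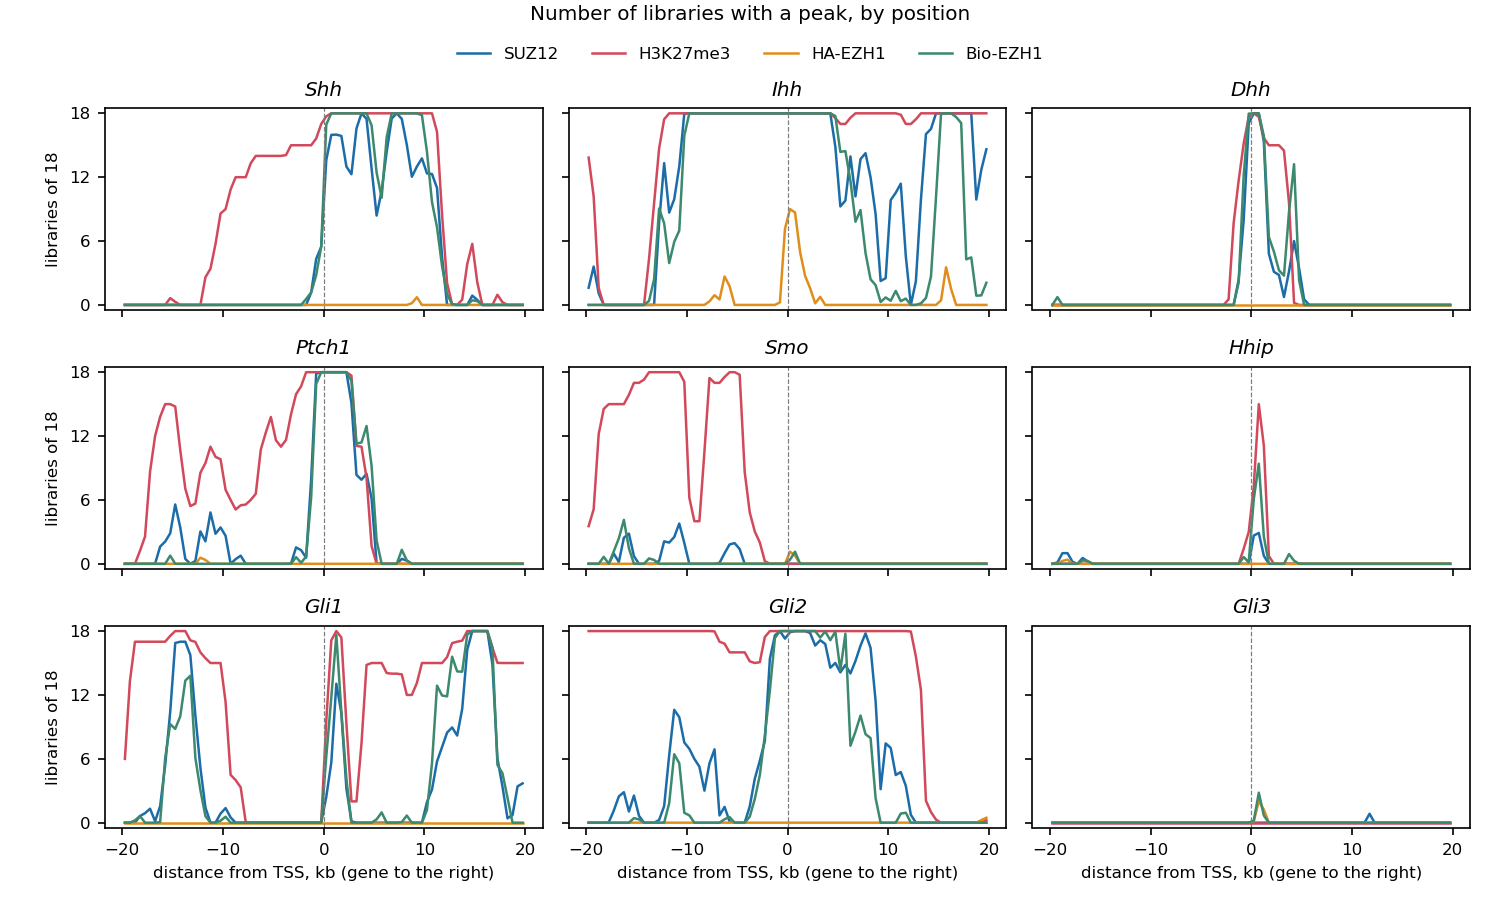
Number of libraries, of 18 per profile (lines), with a peak in 500 bp bins from 20 kb before to 20 kb after the TSS of each gene, drawn with the gene to the right. All 3 lines of SUZ12, H3K27me3 and Bio-EZH1 reach 18 close to the start at Ihh, Dhh, Ptch1 and Gli2, and farther inside the gene at Shh. At Gli1 all 3 reach 18 only past the end of the gene, over Arhgap9. The H3K27me3 line at Smo reaches 18 only before the start, and Gli3 stays near 0.

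The question which promoters each profile reached more or less often than Bio-EZH1 was tested by the number of libraries with a promoter peak, with an exact permutation test within time points, two-sided and adjusted over all genes tested. All 3 comparisons share the Bio-EZH1 libraries. H3K27me3 peaks were called as broad peaks and those of the other profiles as narrow peaks, so presence, and not extent or height, was compared. Presence still depends on how much of the genome the peaks cover. The median covered per library was 201 Mb in H3K27me3, 50.2 Mb in SUZ12, 2.66 Mb in HA-EZH1 and 15.8 Mb in Bio-EZH1. The part of this difference in the calls was not tested. In SUZ12, Hhip was lower (3 against 12 libraries, adjusted p = 0.00326) and no other member was called, while 7.32% of 6286 tested genes were called higher and 8.38% lower, 15.7% in all. The Hhip call was lost when peaks were used as deposited (7 libraries fewer, adjusted p = 0.104, exact test) and when any one replicate number was left out (adjusted p = 0.0913 to 0.101). With 1902 peaks in every list it had 0 libraries in both profiles, and Shh was then called lower in SUZ12 (11 against 18 libraries, adjusted p = 0.0159, exact test). Gli1 had 14 SUZ12 libraries against 18 of Bio-EZH1 (adjusted p = 0.343, exact test), and Gli3 had 0 against 4 (adjusted p = 0.300). In H3K27me3, 0 of 9 members were called by the exact test, and 0 had an unadjusted p under 0.05, while 43.6% of 7970 genes were called (39.5% higher and 4.08% lower). With 1902 peaks in every list, Gli1 was called higher (18 against 1 library, adjusted p = 1.56e-06, exact test). The nearest in the lists as a whole were Gli3, with 0 libraries against 4 (adjusted p = 0.165, exact test), and Hhip, with 15 against 12 (adjusted p = 0.191).

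HA-EZH1 peaks were present in fewer libraries than those of Bio-EZH1 at 7 of the 9 members, while 28.2% of 9248 genes were called lower and 13.7% higher, 41.9% in all. Shh, Dhh, Ptch1, Gli1 and Gli2 each had 0 HA-EZH1 libraries against 18 of Bio-EZH1 (adjusted p = 4.05e-07 each, exact permutation test, from the smallest p that these permutations can give). Hhip had 0 against 12 libraries (adjusted p = 6.54e-05, exact test) and Ihh 9 against 18 (adjusted p = 0.000875). Smo had 2 against 2 and Gli3 had 3 against 4 (both adjusted p = 1, exact test). The HA-EZH1 lists were also shorter, and 6 of the 18, those of 20 and 24 h, held more peaks than the smallest Bio-EZH1 list. Those 6 libraries had no peak at any of the 9 promoters. When every list was cut to its 1902 strongest peaks by q, the number in the smallest list, Shh, Dhh, Ptch1 and Gli2 still had 0 HA-EZH1 libraries against 18 of Bio-EZH1 (adjusted p = 3.79e-07 each, exact test) and Ihh 9 against 18 (adjusted p = 0.00078). The call at Gli1 was lost, with 0 against 1 library (adjusted p = 1, exact test), and Hhip had 0 in both. This setting was chosen after the data had been seen.

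The single HA-EZH1 target, Ihh, was split cleanly by time. Its window was covered over 27.9%, 36.6% and 37.6% at 12 h, 26.1%, 38.1% and 50.7% at 16 h, and 23.6%, 26.5% and 20.2% at 32 h. No library of 20, 24 or 28 h had a peak. The change over time was called by limma's F test over the 6 time points (adjusted p = 1.26e-06), beside 68.2% of the genes tested in HA-EZH1. Peaks that were present had fold enrichments of 3.30 to 5.53 and a median summit 384 bp after the TSS, close to that of Bio-EZH1. The 12, 16 and 32 h lists held 2536 to 4416 peaks, against 8238 to 13136 at 20 and 24 h and 1902 to 2076 at 28 h.

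In SUZ12, promoter coverage changed over time for all 6 members that could be tested, beside 74.3% of all genes tested. Adjusted p was 3.04e-09 for Hhip, 3.29e-06 for Dhh, 5.63e-06 for Shh, 5.12e-05 for Ptch1, 0.000288 for Gli2 and 0.000307 for Gli1 (limma F test). Hhip coverage was 0% in every library but those of 28 h. The size of its p thus rests on the spread of the 28 h libraries and on the spread shared over genes, and does not rank it above the others. With a window of 1 kb the calls of Ptch1 (0.991) and Gli2 (0.492) were lost. Coverage of Dhh was 47.5 to 66.2% at 12 h and 61.0 to 66.5% at 28 h, and 27.8 to 40.4% at the other time points, which overlapped neither. Shh likewise had 69.1 to 71.4% at 28 h, above every other SUZ12 library, and 0%, 0% and 26.9% at 32 h. In Bio-EZH1, 4 of 7 members tested were called, beside 57.5% of genes. These were Dhh (adjusted p = 0.000692), Hhip (0.00291), Gli2 (0.00815) and Gli1 (0.0130), while Gli3 (0.0870), Shh (0.180) and Ptch1 (0.185) were not. The Gli1 call was lost when any one replicate number was left out (adjusted p = 0.0604 to 0.0930), the Hhip call without replicate 1 (0.0631), and the Gli2 call without replicate 1 (0.0738) or 3 (0.0513).

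Fold enrichment, the ratio of signal to modelled background at the strongest promoter peak, was highest at Ihh among the ligands. Its median over 18 libraries was 11.7 for Ihh, 3.604 for Shh (16 libraries) and 3.32 for Dhh in SUZ12, and 45.4, 9.28 and 9.33 for these genes in Bio-EZH1, so the medians of Shh and Dhh were close. For Ihh in SUZ12 it was 42.2, 44.8 and 43.8 at 12 h, 13.7, 13.02 and 14.8 at 16 h, 7.01, 4.38 and 4.27 at 20 h, 9.15, 10.4 and 9.88 at 24 h, 62.5, 71.4 and 72.3 at 28 h, and 6.14, 5.39 and 6.13 at 32 h. The 12 h and 28 h libraries were thus far above the rest without overlap. For Ihh in Bio-EZH1 it was 49.6, 52.4 and 45.4 at 12 h, 31.0, 30.1 and 32.7 at 16 h, 37.8, 30.7 and 33.0 at 20 h, 65.7, 60.9 and 56.7 at 24 h, 40.2, 46.3 and 34.8 at 28 h, and 60.8, 56.2 and 45.4 at 32 h. Ptch1 followed in both profiles, with 29.9, 35.3 and 38.9 at 28 h and 4.68, 2.91 and 2.495 at 20 h in SUZ12, and 15.7 to 41.0 over the 18 libraries of Bio-EZH1. In Bio-EZH1 the lowest Ptch1 values were those of 20 h (18.04, 19.2 and 15.7).

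In SUZ12, too, the folds moved with the whole library. The median over all 1020 promoters tested was 11.2 to 11.5 at 12 h and 17.3 to 19.001 at 28 h, and 3.53 to 6.08 at the other times. With this median subtracted on the log2 scale, Ihh exceeded it by 1.94 ± 0.03 (SD, n = 3 each) in libraries of 12 h, 1.21 ± 0.09 of 16 h, 0.35 ± 0.30 of 20 h, 0.90 ± 0.09 of 24 h, 1.90 ± 0.04 of 28 h and 0.70 ± 0.08 of 32 h. All 4 members with a SUZ12 peak in 18 libraries were called after this step, Ihh (adjusted p = 6.60e-09), Ptch1 (7.55e-05), Dhh (0.00136) and Gli2 (0.0347), beside 91.7% of genes (limma F test). The Gli2 call was lost without replicate 1 (adjusted p = 0.102) or 2 (0.143), and that of Dhh without replicate 2 (0.0885). In Bio-EZH1, 5 of 6 were called, Gli2 (9.84e-05), Shh (0.000685), Dhh (0.000907), Ihh (0.00113) and Ptch1 (0.00128), with Gli1 at 0.311, beside 77.1% of genes. Without replicate 1, Ptch1 had an adjusted p of 0.0559 and Dhh of 0.0754.

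**Figure D3:**
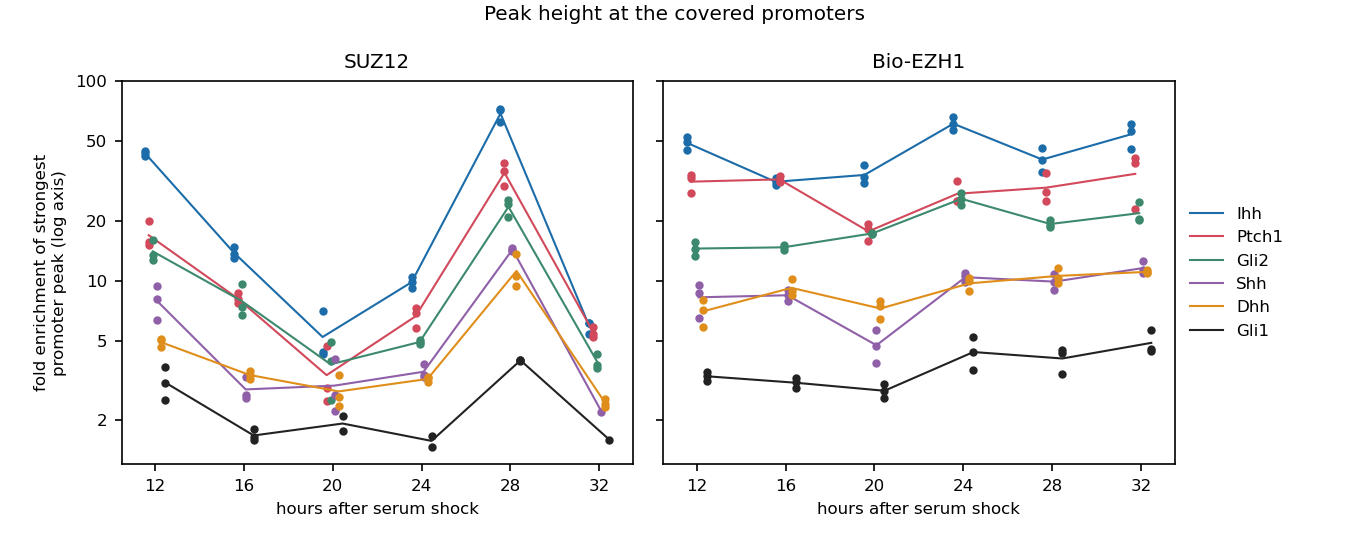
Fold enrichment of the strongest promoter peak (log axis) by hours after serum shock in SUZ12 (left) and Bio-EZH1 (right), with a point per library and a line through the mean of the libraries with a peak, for 6 genes. In SUZ12 all 6 genes are highest at 28 h, where Ihh reaches 62.5 to 72.3, while in Bio-EZH1 Ihh stays between 30.1 and 65.7.

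H3K27me3 covered less of 6 promoters at 12 h than at any later time. The 3 libraries of 12 h all lay below the 15 later ones at 6 of the 6 members that could be tested, a pattern found at 36.6% of 5592 genes. Shh was covered over 59.3%, 62.6% and 47.6% at 12 h and over 100% in each later library. Dhh had 30.2%, 25.4% and 20.9% at 12 h and 68.5 to 85.8% later. Gli1 had 22.5%, 18.5% and 21.7% at 12 h and 32.2 to 47.4% later, and Gli2 had 90.0%, 92.3% and 88.7% at 12 h and 100% later. Ptch1 had 86.7%, 84.2% and 99.2% at 12 h and 99.4 to 100% later, a margin of a fraction of a percent for 1 of the 3 libraries. Hhip had 0% at 12 h and 13.1 to 34.6% later, and Ihh had 100% throughout.

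All 6 were called by the F test over time, beside 66.8% of genes, with adjusted p = 1.25e-08 for Shh, 1.36e-07 for Dhh, 8.79e-07 for Gli2, 0.00141 for Hhip, 0.00201 for Gli1 and 0.0194 for Ptch1 (limma). At Shh and Gli2 every library after 12 h was covered over 100%. The size of their p thus rests on the spread of the 12 h libraries and on the spread shared over genes. Without the 12 h libraries none of the 4 that could still be tested was called, with adjusted p = 0.129 for Dhh, 0.246 for Hhip, 0.476 for Gli1 and 0.984 for Ptch1, and the number of genes called overall was 1123 in place of 3735. The Ptch1 call was also lost without replicate 1 (adjusted p = 0.414) or 2 (0.412), and that of Gli1 without replicate 2 (0.0677). All 3 libraries of 12 h share the lower median fold enrichment given above, and its part in these differences was not tested.

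Over the gene records the difference between 12 h and later times was large at Gli1 and Gli2. The 12 h libraries lay below all later ones at Dhh, Hhip, Gli1 and Gli2, a pattern found at 37.5% of 6098 genes. Coverage of Gli1 was 11.2%, 9.16% and 10.8% at 12 h and 73.2 to 97.6% from 16 h onward. Coverage of Gli2 was 11.04%, 10.01% and 11.9% at 12 h and 41.7 to 61.8% later. Dhh had 11.3 to 16.6% at 12 h and 44.0 to 55.4% later. By contrast the Shh record was already covered over 98.6 to 100% at 12 h, as was that of Ihh over 77.6 to 100%. Over the gene record, 5 of 7 members were called, beside 75.2% of genes, with adjusted p = 2.37e-09 for Gli2 and 3.89e-09 for Gli1, and Ihh (0.449) and Shh (0.951) the 2 not called. Without the 12 h libraries 1 of 5 was called, Gli2 (adjusted p = 0.0133), with Gli1 at 0.291. The tests over gene records were chosen after the data had been seen.

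**Figure D4:**
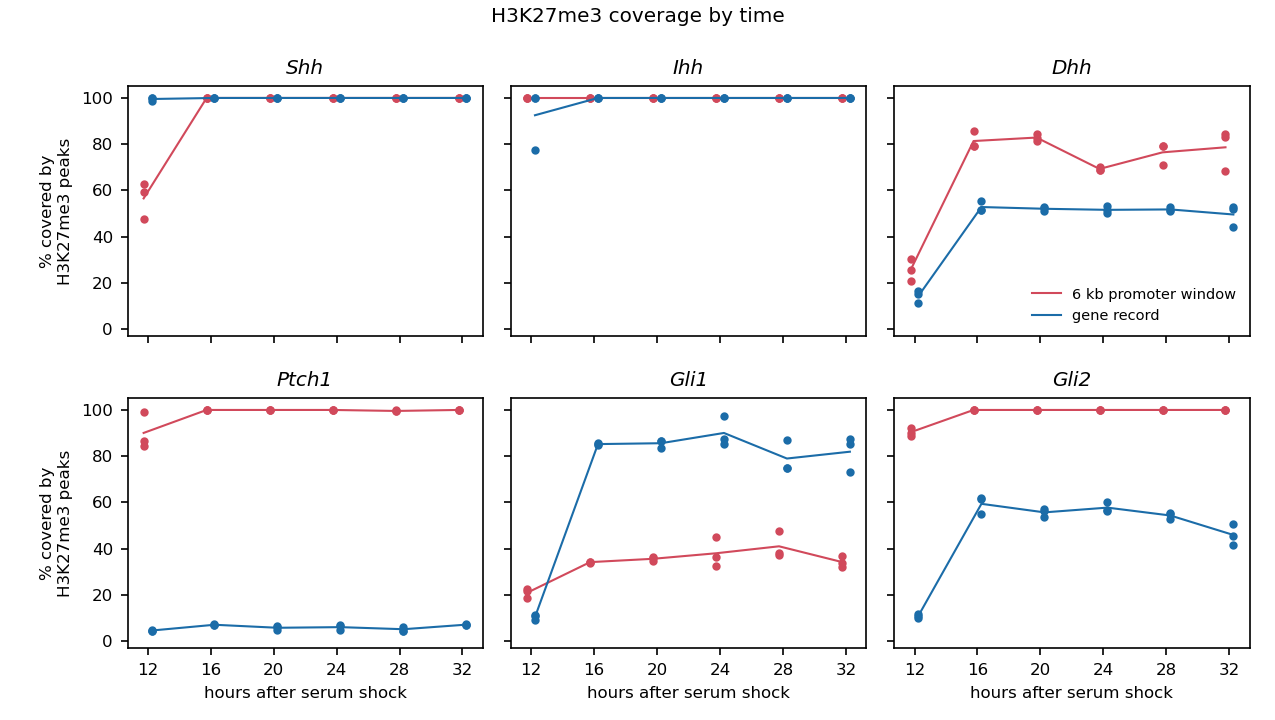
Percent of the 6 kb promoter window (red) and of the gene record (blue) covered by H3K27me3 peaks, by hours after serum shock, for 6 genes, with a point per library and a line through the mean of 3. Gli1 and Gli2 gene records sit at 9.16 to 11.9% at 12 h and at 41.7% or more in every later library, while Ihh promoter coverage is 100% in all 18.

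The height of the H3K27me3 peak at Gli1 also differed between 12 h and the later times. A stretch of 1108 bp at chr10:127340207-127341314, 660 to 1767 bp after the TSS, was covered in all 18 libraries. Its strongest peak had a fold enrichment of 2.30, 2.59 and 2.33 at 12 h, 13.03, 15.3 and 13.3 at 16 h, 11.7, 11.2 and 11.2 at 20 h, 10.3, 9.70 and 5.22 at 24 h, 12.4, 7.08 and 12.1 at 28 h, and 14.03, 14.1 and 13.8 at 32 h. No later library overlapped those of 12 h. By rank, this was the 18002nd, 9582nd and 17016th peak at 12 h among the 24489 to 28104 of each library, and at 16 h it was second from the top in all 3. At 20 and 32 h it ranked between 2 and 13. In replicate 3 at 24 h and replicate 2 at 28 h, which had the lowest later values, the peak was 21570 and 7819 bp long, and the fold enrichment of a broad peak is averaged over its length.

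Bio-EZH1 peaks at Gli1 had fold enrichments of 2.59 to 5.63, with 3.37 to 87.1% (median 57.0%) of the library's peaks below them, and SUZ12 peaks had fold enrichments of 1.47 to 4.02. After subtraction of the library median, the H3K27me3 peak of Gli1 stood above it on the log2 scale by 0.01 ± 0.08 in the 12 h libraries, 1.82 ± 0.11 in those of 16 h and 1.90 ± 0.01 in those of 32 h (SD, n = 3 each). All 6 members tested were called for H3K27me3 fold enrichment over time, beside 95.4% of genes, Gli1 with adjusted p = 5.44e-06 (limma F test). Ccnd1, the gene of cyclin D1 and a hedgehog target in several tissues, was picked for its values and had a similar course. Its strongest promoter peak ranked 12594th to 14332nd at 12 h, with fold enrichment 2.38 to 2.53, and 1st or 2nd in all 15 later libraries, at 12.4 to 18.6. This was not a trait of the responding genes listed below. The others with an H3K27me3 promoter peak had a highest fold enrichment of 3.07 (Pax1) to 8.03 (Pax9).

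**Figure D5:**
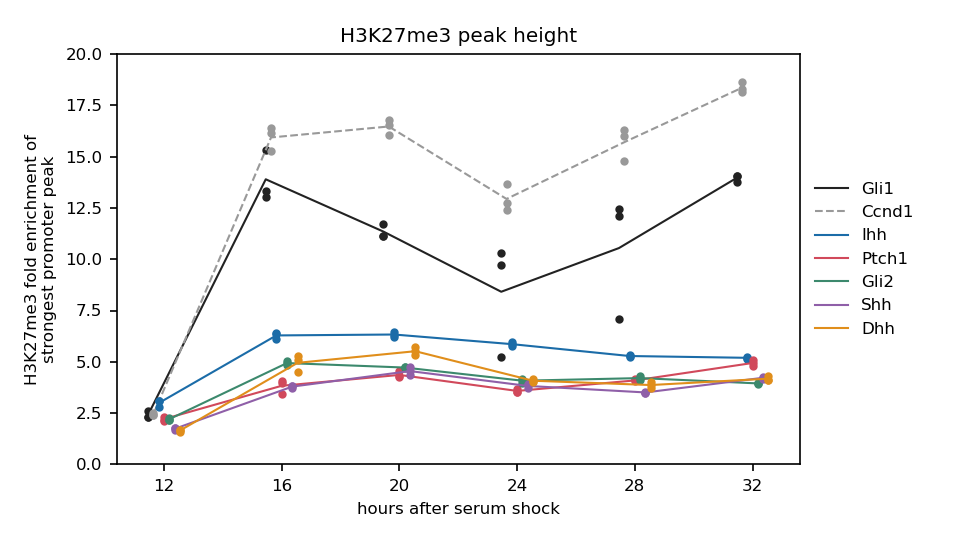
H3K27me3 fold enrichment of the strongest promoter peak by hours after serum shock for 6 genes and Ccnd1 (dashed), with a point per library and a line through the mean of 3. Gli1 and Ccnd1 are near 2.5 at 12 h, within the range of the other genes, whose means run from 1.65 (Dhh) to 2.99 (Ihh). Both stand above the other genes at most later times, with Gli1 at 5.22 to 15.3.

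From 12 to 16 h, H3K27me3 and SUZ12 changed differently at the members. Mean Dhh coverage by H3K27me3 was 25.5% at 12 h and 81.4% at 16 h, whereas that by SUZ12 was 54.4% at 12 h and 34.1% at 16 h. For Shh, H3K27me3 covered 56.5% at 12 h and 100% at 16 h, and SUZ12 covered 60.2% and 49.7% at these times. The change differed between the profiles for 6 of 6 members tested (limma interaction term), beside 60.8% of all genes tested, 55.6% with the 12 h minus 16 h difference lower in H3K27me3. Peaks were broad in H3K27me3 and narrow in SUZ12, and the libraries shifted as a whole, with the SUZ12 median over promoters at 11.2 to 11.5 at 12 h and 5.81 to 6.08 at 16 h. The part of these shifts was not tested.

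Neighbouring genes were covered in some cases. Cfap65, 16073 bp from the start of Ihh, had a promoter peak in 18 SUZ12, 18 H3K27me3, 4 HA-EZH1 and 18 Bio-EZH1 libraries. Inhbe, 12437 bp from the start of Gli1 and encoding an activin subunit, had 17, 18, 0 and 18, and stretches shared by all 18 libraries of H3K27me3 also lay over Arhgap9 and Inhbc on either side. Inhbb, another activin subunit gene, 368629 bp from Gli2, had 16, 18, 1 and 18. The neighbours of the other members, Rbm33 of Shh, Fancc of Ptch1, Ahcyl2 of Smo, Anapc10 of Hhip and Inhba of Gli3, had 0 to 5 libraries with a peak in SUZ12, H3K27me3 and Bio-EZH1 and 0 to 9 in HA-EZH1.

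Of 32 further genes of the pathway, 6 were bound by SUZ12, 10 by H3K27me3, 7 by HA-EZH1 and 6 by Bio-EZH1, beside 14.5%, 24.2%, 9.85% and 12.0% of all genes. In this order of profiles, 25, 21, 20 and 20 of them had no promoter peak in any library, beside 76.8%, 69.005%, 72.3% and 76.9% of all genes, so in SUZ12 and H3K27me3 the list was close to the background. Peaks in all 18 libraries of SUZ12, H3K27me3 and Bio-EZH1 were found at 3 of them, Scube2 and Scube3, whose products help release the lipid-modified ligand, and Lrp2, an endocytic receptor that binds Shh. Scube1 had 6, 18 and 17 libraries in these profiles. The intracellular regulators Sufu, Kif7 and Gpr161 had 0 libraries in all 4 profiles.

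The tests against Bio-EZH1 called 1 of 13 of these genes in SUZ12, 5 of 16 in H3K27me3 (4 higher) and 8 of 19 in HA-EZH1 (3 higher). Of all genes tested, 15.7%, 43.6% and 41.9% were called in these comparisons, with 39.5% higher in H3K27me3 and 13.7% higher in HA-EZH1. The counts of this list are a description, and the genes below are named from among those called. The SUZ12 call was Scube1, with 6 libraries against 17 (adjusted p = 0.00123, exact test). Gas1, a coreceptor, had 0 H3K27me3 libraries against 10 of Bio-EZH1 (adjusted p = 0.000824, exact permutation test). Ift88, needed to build the cilium in which the pathway signals, had 16 H3K27me3 libraries against 0, Disp3 15 against 0, Hhatl 14 against 0 and Arrb1 10 against 1. Median H3K27me3 coverage of the promoter window was only 3.76% for Ift88 and 8.97% for Hhatl, against 97.8% for Disp3 and 29.5% for Arrb1. The 3 genes higher in HA-EZH1 than in Bio-EZH1, named for their values, were Btrc (8 libraries against 0), Csnk1a1 (6 against 0) and Ift88 (5 against 0). Btrc and Csnk1a1 encode a ubiquitin ligase subunit and a kinase that act on the GLI factors. Boc, also a coreceptor, had 8 H3K27me3 libraries against 4 of Bio-EZH1 and 0 of SUZ12. Coverage over time was called for 6 of 6 tested in SUZ12, 6 of 11 in H3K27me3, 7 of 9 in HA-EZH1 and 4 of 7 in Bio-EZH1, beside 74.3%, 66.8%, 68.2% and 57.5% of all genes tested.

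Of 20 genes known to respond to hedgehog in some embryonic tissue, 16 were bound by SUZ12, 15 by H3K27me3, 3 by HA-EZH1 and 16 by Bio-EZH1, beside the 14.5%, 24.2%, 9.85% and 12.0% of all genes. Bmp4, Ccnd1, Ccnd2, Foxa2, Foxf1 and Hand2 were among those with a peak in all 18 libraries of SUZ12, H3K27me3 and Bio-EZH1, and had 0, 0, 7, 3, 9 and 1 HA-EZH1 libraries. Against Bio-EZH1, 15 of 17 tested were lower in HA-EZH1, beside the 28.2% of all genes given above. In SUZ12, Nkx3-2 was lower (12 against 18 libraries). In H3K27me3, Mycn (15 against 3) and Pax1 (8 against 0) were higher and Foxc2 was lower (0 against 13), each named for its values. Of this list 12 of 12 changed over time in SUZ12 coverage, 11 of 13 in H3K27me3, 3 of 7 in HA-EZH1 and 8 of 11 in Bio-EZH1, beside the same 74.3%, 66.8%, 68.2% and 57.5%.

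The gene whose coverage over the 72 libraries was most like that of each member, with its TSS over 100 kb away or on another chromosome, was Dmbx1 for Ihh (Pearson r = 0.997), Pitx1 for Gli2 (0.990), Alox8 for Ptch1 (0.987), Fgf17 for Shh (0.970), Tbx10 for Dhh (0.969), Sult2b1 for Gli1 (0.936) and Prox1 for Hhip (0.881). These correlations describe 72 libraries that share 4 profiles and 6 times, and no p is attached to them. Smo and Gli3 had a peak in 6 and 7 libraries, too few for this measure.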

How the data were processed

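Members and gene lists, and the rule for naming further genes, were chosen with earlier results of these data known. Groups were taken from the labels. The deposited SUZ12 lists carry a name used for streptavidin, and if they had been exchanged with Bio-EZH1 the values of the 2 profiles would exchange.

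Per the study's methods and the submitters' processing notes, reads were trimmed with BBDuk, aligned with BWA 0.7.17 to mm10 and to the Drosophila genome of the spike-in, parted with disambiguate, cleared of duplicates with Picard and filtered with SAMtools 1.7 for properly paired reads with a mapping quality of at least 30. MACS2 2.2.4 then called peaks in each library. The filter behind the deposited lists is not given in the sources used here, and the spike-in factors were not used here, so fold enrichment is not calibrated between libraries. Lists are narrow peaks with q up to 0.05, except H3K27me3, which are broad peaks with q up to 0.1. The deposited fold enrichment is a ratio to the modelled background, averaged over the whole peak for broad peaks. The authors' lists give p and q as -log10, and the deposited score, which is -log10 q times 10, entered no test. Depth is unknown.

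Peaks with q under 0.01 were kept and set against 21755 protein-coding genes of GENCODE M21 on the 19 autosomes and X. The peaks of all 20 chromosomes ended inside the mm10 lengths. Coverage and the log2 fold enrichment of the strongest promoter peak, less the library median, were tested over time with limma 3.58.1 in R 4.3.3 (genes with a peak in at least 3 libraries, or in all 18 for fold enrichment). Members covered alike in every library could not be tested. Presence was compared with an exact permutation test within time points in Python 3.11.15. P-values were adjusted by Benjamini-Hochberg over all genes tested, with a threshold of 0.05, and measure the spread between these samples only. The tests were tried on simulated data. For coverage, the simulated noise was normal and of equal spread at all time points, so time points without any spread were not modelled. Named genes were the 9 members with their nearest neighbours, up to 10 further pathway genes (1 is not reported here) and up to 6 responding genes with most libraries with a peak, ties in alphabetical order, and the gene most like each member. Sufu, Kif7, Gpr161, Arrb1, Btrc, Csnk1a1, Nkx3-2, Mycn, Pax1, Foxc2, Arhgap9 and Inhbc, outside this rule, and the account of Ccnd1 beside Gli1 were chosen after their values were seen. Alternatives were peaks as deposited, q under 0.001, a window of 1 kb, the whole gene, equal numbers of strongest peaks within a profile or in all lists, leaving out each replicate or the 12 h libraries, fold enrichment without the median, an exact test of presence over time and a replicate block. Coordinates count from 1.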

Additional observations from a re-analysis of the deposited data

Results flagged for a closer look

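The change of promoter coverage from 12 to 16 h differed between H3K27me3 and SUZ12 at 6 members, by a test of the difference itself (limma interaction term, adjusted over all genes). Values are the 12 h mean minus the 16 h mean in H3K27me3, less the same in SUZ12, in percentage points of the promoter window (n = 3 libraries each). They were -76.1 for Dhh (adjusted p = 3.04e-12), -54.0 for Shh (1.15e-07), -29.7 for Hhip (4.89e-06), -25.7 for Gli1 (0.000831), -24.7 for Gli2 (3.48e-05) and -16.4 for Ptch1 (0.000411). At Dhh, Shh, Gli1, Gli2 and Ptch1 every 12 h library was below every 16 h library in H3K27me3 and above every one in SUZ12, a pattern seen at 17.6% of the genes tested. At Hhip the SUZ12 coverage was 0% at both times, and that of H3K27me3 was 0% at 12 h and 29.7% at 16 h. The profiles came from different lines and fixations, with broad peaks in H3K27me3 and narrow peaks in SUZ12. Median fold enrichment was lower at 12 h than later in H3K27me3 and was 11.2 to 11.5 at 12 h and 5.81 to 6.08 at 16 h over the SUZ12 promoters tested, and the part of these shifts was not tested.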

How the results depend on the processing

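Of the counts recomputed under an alternative, 117 stayed within 1.5 times the main count and 20 did not. Among single members, 532 tests kept their side of the threshold, 36 lost it, 9 gained it and 0 reversed. Members bound by HA-EZH1 numbered 2 in place of 1 with peaks as deposited (Smo added) and with the whole gene (Gli3 added), and 1 to 2 when leaving out a replicate. Coverage over time called 1123 genes in H3K27me3 without the 12 h libraries in place of 3735, and 1986 over the gene record without them, in place of 4586. The test of presence over time, an exact test, called 969 genes in SUZ12 in place of 2738, 1080 in H3K27me3, and 0 in Bio-EZH1, where 342 of 1677 genes had an unadjusted p under 0.05 and limma on coverage called 1823. Bio-EZH1 coverage called 1024 with a window of 1 kb and 895 to 1189 when leaving out a replicate. H3K27me3 fold enrichment called 1351 with q under 0.001 in place of 2091, and SUZ12 against Bio-EZH1 presence called 189 to 272 when leaving out a replicate in place of 987. With 1902 peaks in every list, presence against Bio-EZH1 called 574 genes in SUZ12, 1218 in H3K27me3 in place of 3475, and 2431 in HA-EZH1 in place of 3877. Among members, Gli1 was called lower in SUZ12 with a window of 1 kb (9 libraries fewer, adjusted p = 0.0154, exact test), and Hhip higher in H3K27me3 with equal numbers of strongest peaks (adjusted p = 0.0425, exact test). Without the median subtracted, Gli1 fold enrichment in Bio-EZH1 was called (adjusted p = 0.000413). A replicate block changed 0 of 37 member calls and gave 2702 genes in SUZ12, 3683 in H3K27me3, 2119 in HA-EZH1 and 1762 in Bio-EZH1 for coverage. Within a profile, replicates with the same number did not deviate together on average, with a mean correlation of -0.005 to 0.001 by profile. The numbers thus gave no sign of pairing the time points of a profile. Pairing of libraries between profiles was not examined. The alternatives over the gene record and with 1902 peaks in every list were chosen after seeing the data. Except where a setting left out libraries or used another test, the cause of these shifts was not tested. Depth is unknown, so a promoter without a peak was below the caller's threshold, and absence of the protein or mark was not shown.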
